A study of Arabidopsis thaliana with 24 samples.

Results

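Copper-binding proteins whose transcripts are targets of the plant microRNAs miR397, miR398, miR408 and miR857 were followed on the ribosomes of Arabidopsis thaliana roots. They were 9 genes of the 33602 in the count table, taken by gene identifier, though earlier results of these data were known when they were chosen. All 9 passed the filter on low counts that left 23219 genes for testing. They comprise the laccases LAC2 (AT2G29130), LAC4 (AT2G38080) and LAC17 (AT5G60020), known targets of miR397, and LAC3 (AT2G30210) and the plantacyanin ARPN (AT2G02850), known targets of miR408. LAC7 (AT3G09220) is a known target of miR857. The superoxide dismutases CSD1 (AT1G08830) and CSD2 (AT2G28190) and their copper chaperone CCS (AT1G12520) are known targets of miR398.

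The plants carried HF-RPL18, a tagged ribosomal protein L18 whose pull-down with an anti-FLAG resin brings along the mRNAs on the tagged ribosomes. In 1 line the viral 35S promoter drove the tag, and in the others a promoter named for a root layer did so: ACR4 for columella, SHR for stele, SCR for endodermis, CO2 for cortex and WER for epidermis. Each of the 6 lines was studied in the hyl1 mutant and in the Col0 wild type, with 2 libraries per group and 24 in all. Roots were taken after 6 days in light at 22 °C, each sample pooling about 20 plates. The hyl1 allele, and whether each line is 1 transformant, are not given in the labels. HYL1 is a double-stranded RNA-binding partner of the Dicer enzyme that cuts plant microRNAs from their precursors.

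Laccases are secreted multicopper oxidases, and LAC4 and LAC17 are known to polymerise lignin in vascular tissue. CSD1 in the cytosol and CSD2 in plastids convert superoxide with copper and zinc, and CCS loads their copper. Plantacyanin is a small secreted blue copper protein. When copper is scarce, the transcription factor SPL7 switches on the copper microRNAs, which lower the transcripts of these proteins and so spare copper for others.

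The microRNA sequences are shown because the seed, bases 2 to 8 from the 5′ end, sorts the microRNAs into families. Seeds are in capitals, and the sequences are those of the RefSeq annotation of TAIR10.1.
miR397a: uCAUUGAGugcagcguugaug
miR397b: uCAUUGAGugcaucguugaug
miR398a-3p: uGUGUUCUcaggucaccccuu
miR398b-3p and miR398c-3p: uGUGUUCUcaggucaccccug
miR408-3p: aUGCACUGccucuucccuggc
miR857: uUUUGUAUguugaagguguau
The 2 forms of miR397 share 1 seed, as do the 3 forms of miR398, and the seeds of the 4 families all differ.

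The site in each transcript that pairs best with its microRNA is shown next, 5′ to 3′, with capitals at the bases that face the seed. Each was found by an ungapped scan of the annotated TAIR10.1 transcripts, in which a mismatch costs 1 and a G:U pair 0.5.
LAC2: aaucaaugcugcaCUCAAUGa
LAC4: agucaacgcugcaCUUAAUGa
LAC17: aaucaaugcugcaCUUAAUGa
LAC3: accagugaagaggCUGUGCAg
ARPN: ccaagggaagaggCAGUGCAu
LAC7: acacaccuucaacGUACAAAa
CSD1: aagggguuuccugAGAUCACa
CSD2: ugcgggugaccugGGAAACAu
CCS: auugggagaccugGGAACACu
The capitals are not always a full match to the seed. Of the bases facing it, 3 were mismatched in CSD2, and 1 each in CSD1 and LAC3. LAC4, LAC17, LAC7, CSD2 and CCS each had 1 G:U pair there. The CSD1 site lies in the 5′ UTR and the other 8 lie in coding sequence. LAC2 had a penalty of 1.5 with miR397a, a score that 1 gene of the 31342 scanned reached. LAC4 and LAC17 each had a penalty of 2, which 0.00957% of the scanned genes reached. ARPN had a penalty of 2 with miR408-3p, which 0.00638% of genes reached, and LAC3 had 4, which 0.067% reached. LAC7 had a penalty of 1.5 with miR857, again reached by 1 gene. CSD1 had a penalty of 3 with miR398a-3p, which 0.00638% of genes reached, and CCS had 4.5, which 0.188% reached. CSD2 paired best with miR398b-3p, at a penalty of 6.5 that 12.2% of genes reached, in a scan that allows no bulge. A match is a description of the letters and not a measured cleavage site.

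Library totals ran from 2868803 to 13575556 counts. HYL1 itself fell in hyl1, by a mean log2 fold change of -1.67 (SE 0.34, edgeR adjusted p = 0.00185), and in 6 of 6 lines both hyl1 libraries lay below both Col0 libraries. Markers of the endodermis were 9 of 9 higher in the Col0 SCR line than in the other Col0 layer lines, and columella and root cap markers were 5 of 5 higher in the ACR4 line. These were also 4 of 5 higher in the Col0 WER line, so they did not set ACR4 apart from WER. For the stele the count was 3 of 6 in the SHR line, and for the epidermis 4 of 9 in the WER line. Stele markers were also 2 of 6 higher in the Col0 CO2 line. Their median log2 fold change was 1.08 there and 1.12 in SHR, so this list did little to set SHR apart from CO2. The 2 cortex markers summed to between 0.103 and 4.19 normalised CPM (counts per 1000000) in every library, so they did not check the CO2 line. The 2 hyl1 WER libraries were the least alike of any pair, with r = 0.803 on the log scale, and the 2 Col0 SCR libraries had 2119 and 492 CPM of summed endodermis markers. The labels do not say whether the 2 libraries of a group came from separate cultures, and all p-values here rest on a spread between libraries that may be technical. The SHR line and the WER line each have a run of library numbers of their own, apart from the other lines, so in comparisons between lines these 2 lines cannot be told apart from that numbering batch. Fewer cells of a type and less RNA per cell cannot be told apart in these bulk pull-downs.

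The first comparison asked how the copper protein transcripts on ribosomes differ when microRNA processing is impaired. Averaged over the 6 lines, 6 of the 9 genes rose in hyl1 (LAC3, ARPN, LAC4, CSD2, LAC17 and CCS), 2 fell (LAC2 and LAC7) and CSD1 did not pass the test. Among the 9, the largest mean differences were those of the miR408 targets, a log2 fold change of 1.51 for LAC3 and 1.35 for ARPN. Over all genes tested, 19.8% were called at an adjusted p under 0.05 (7.84% higher and 12% lower). The median log2 fold change was 0.57 over the 9 copper protein genes and -0.07 over all genes tested.

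**Figure D1:**
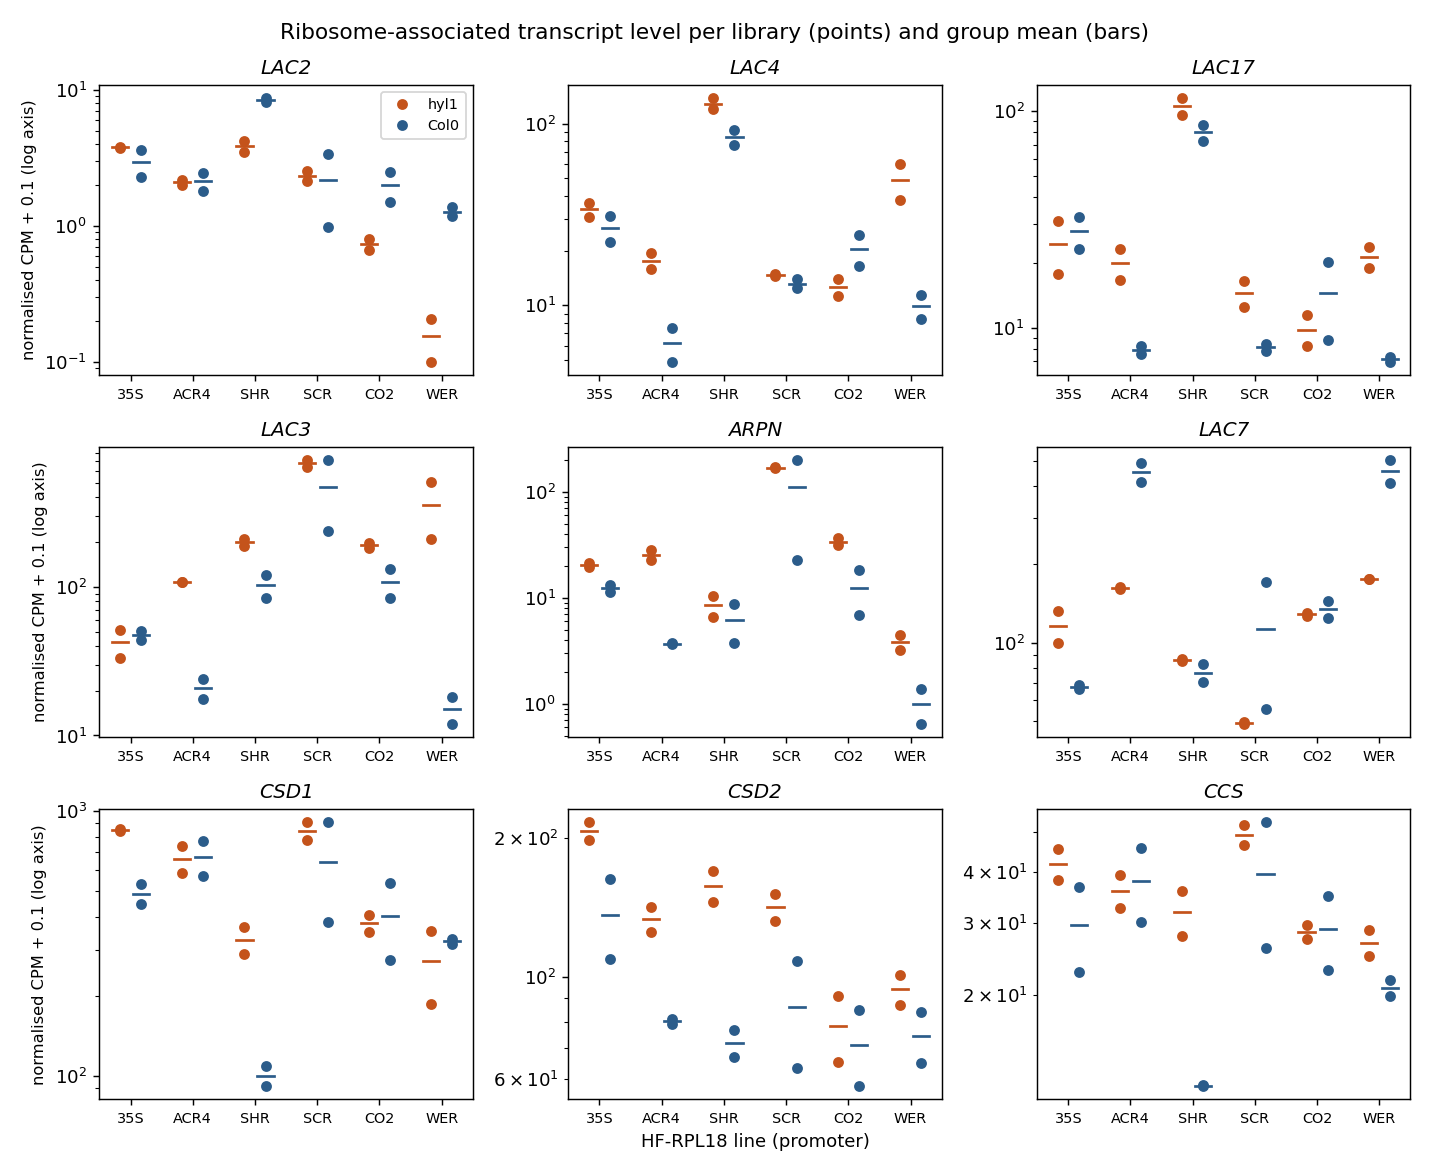
Normalised CPM plus 0.1, on a log axis, of the 9 copper protein genes in each of the 24 libraries (points), with group means (bars), by HF-RPL18 line; hyl1 is left of Col0 in each line. LAC3 in the WER line stands at 211 and 504 in hyl1 against 11.8 and 18.1 in Col0, while CSD2 has the higher mean in hyl1 in 6 of 6 lines.

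Levels between genes were compared as CPM per kilobase of exon. CSD1 was the most abundant, with a mean level over the libraries of 636 CPM per kilobase in hyl1 and 502 CPM per kilobase in Col0. LAC2 was the least, with 0.938 CPM per kilobase in hyl1 and 1.39 CPM per kilobase in Col0. The other 7 had mean levels between 15.5 and 128 CPM per kilobase in hyl1 and between 11.5 and 86.3 CPM per kilobase in Col0.

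Among the miR397 targets, LAC4 ranged from 11.1 to 138 CPM with a median of 24.9 CPM over the 12 hyl1 libraries, and from 4.76 to 92.3 CPM with a median of 15.1 CPM over the 12 Col0 libraries. Its mean log2 fold change was 0.71 (SE 0.12, adjusted p = 4.76e-04), and both hyl1 libraries lay above both Col0 libraries in the ACR4, SHR, SCR and WER lines. Such a separation was common. Of all genes tested, both hyl1 libraries lay above both Col0 libraries for 18.4% in 35S, 31.8% in ACR4, 17.9% in SHR, 21.9% in SCR, 21% in CO2 and 20.2% in WER. They lay below for 20.8% in 35S, 34.4% in ACR4, 18.1% in SHR, 22.1% in SCR, 18.7% in CO2 and 34.3% in WER. In the WER line LAC4 had 37.9 and 59.8 CPM in hyl1 against 11.3 and 8.35 CPM in Col0, a log2 fold change of 2.32 (SE 0.30, adjusted p = 2.01e-05). In the ACR4 line it had 19.3 and 15.7 CPM in hyl1 against 7.43 and 4.76 CPM in Col0, a log2 fold change of 1.52 (SE 0.31, adjusted p = 0.00268), with an adjusted p of 0.0601 without Col0 ACR4 replicate 2. In the CO2 line both hyl1 libraries, at 13.9 and 11.1 CPM, lay below both Col0 libraries, at 16.4 and 24.2 CPM, which gave a log2 fold change of -0.69 (adjusted p = 0.931). In a fit of the 35S, SHR and CO2 lines alone the mean log2 fold change of LAC4 was 0.09 (adjusted p = 0.859).

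LAC17, the other lignin laccase of the miR397 group, ranged from 8.12 to 115 CPM with a median of 18.1 CPM in hyl1, and from 6.83 to 86.6 CPM with a median of 8.50 CPM in Col0. Averaged over lines, its log2 fold change was 0.57 (SE 0.15, adjusted p = 0.00962). In the WER line it had 18.7 and 23.5 CPM in hyl1 against 7.26 and 6.83 CPM in Col0, a log2 fold change of 1.58 (SE 0.36, adjusted p = 0.00218). The ACR4 line gave 23.1 and 16.5 CPM in hyl1 against 8.13 and 7.45 CPM in Col0, a log2 fold change of 1.34 (SE 0.36, adjusted p = 0.0168). In the SCR line both hyl1 libraries, at 16.3 and 12.4 CPM, also lay above both Col0 libraries, at 8.29 and 7.73 CPM, without passing the test (adjusted p = 0.433). The ACR4 call of LAC17 was lost without Col0 ACR4 replicate 1 (adjusted p = 0.0971), Col0 ACR4 replicate 2 (0.126) or hyl1 ACR4 replicate 1 (0.171). Without the WER line the mean log2 fold change was 0.37 (adjusted p = 0.121), and in the 35S, SHR and CO2 lines alone it was -0.11 (adjusted p = 0.871). The annotated span of LAC17 shares 2266 bases with AT5G60022 on the opposite strand, and since the use of strand in counting is not given, reads of these genes cannot be told apart.

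LAC2 was the least abundant miR397 target and went the other way. It ranged from 0 to 4.09 CPM with a median of 2.04 CPM in hyl1, and from 0.888 to 8.56 CPM with a median of 2.28 CPM in Col0. Its mean log2 fold change was -1.06 (SE 0.29, adjusted p = 0.0141), measured on between 0 and 28 reads per hyl1 library and between 6 and 45 reads per Col0 library. In the WER line LAC2 had 1 and 0 reads in hyl1 against 10 and 15 reads in Col0, a ratio of 0.0447 after scaling, with an exact 95% interval of 0.00109 to 0.273 that covers counting error only. The hyl1 libraries also lay below the Col0 libraries in the SHR line, at 4.09 and 3.41 CPM against 7.99 and 8.56 CPM, and in the CO2 line, at 0.695 and 0.567 CPM against 1.39 and 2.40 CPM. In the 35S line they lay above, with means of 3.66 CPM in hyl1 and 2.86 CPM in Col0, and in the ACR4 and SCR lines the genotypes overlapped. Without the WER line the mean log2 fold change of LAC2 was -0.45 (adjusted p = 0.279).

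Among the miR408 targets, LAC3 ranged from 32.9 to 711 CPM with a median of 193 CPM in hyl1, and from 11.8 to 708 CPM with a median of 67.3 CPM in Col0. Its mean log2 fold change was 1.51 (SE 0.18, adjusted p = 1.33e-05), and the hyl1 libraries lay above the Col0 libraries in the ACR4, SHR, CO2 and WER lines. The widest difference was in the WER line, where LAC3 had 211 and 504 CPM in hyl1 against 11.8 and 18.1 CPM in Col0, a 23.8-fold difference (log2 fold change 4.58, SE 0.49, adjusted p = 3.47e-06). In the ACR4 line it had 108 and 108 CPM in hyl1 against 23.9 and 17.5 CPM in Col0, a log2 fold change of 2.38 (SE 0.45, adjusted p = 0.00151). The Col0 WER and ACR4 libraries held the lowest LAC3 levels of the series. In the SHR line LAC3 had 188 and 210 CPM in hyl1 against 84.2 and 120 CPM in Col0, a log2 fold change of 0.96 (adjusted p = 0.876). In the CO2 line it had 184 and 198 CPM in hyl1 against 132 and 84.7 CPM in Col0, a log2 fold change of 0.82 (adjusted p = 1.0). Neither line passed the test, and a separation of this direction was met in 17.9% of all genes in SHR and 21% in CO2. In the 35S line the genotypes overlapped, at 51.4 and 32.9 CPM in hyl1 against 44.0 and 50.4 CPM in Col0. In the 35S, SHR and CO2 lines alone the mean log2 fold change of LAC3 was 0.55 (adjusted p = 0.0449).

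ARPN, the plantacyanin, ranged from 3.10 to 171 CPM with a median of 22.0 CPM in hyl1, and from 0.542 to 199 CPM with a median of 7.70 CPM in Col0. Its mean level was higher in hyl1 in 6 of 6 lines, and its mean log2 fold change was 1.35 (SE 0.28, adjusted p = 0.00252). In the ACR4 line ARPN had 28.5 and 22.5 CPM in hyl1 against 3.54 and 3.66 CPM in Col0, a log2 fold change of 2.82 (SE 0.70, adjusted p = 0.00994). That call was lost without Col0 ACR4 replicate 1 (adjusted p = 0.0938), Col0 ACR4 replicate 2 (0.0837) or hyl1 ACR4 replicate 1 (0.0604). In the WER line it had 4.35 and 3.10 CPM in hyl1 against 0.542 and 1.27 CPM in Col0, a log2 fold change of 1.98 (SE 0.81, adjusted p = 0.0614), with 5 and 15 reads behind the Col0 values. It passed there without Col0 SCR replicate 1 (adjusted p = 0.00568) or 2 (0.00543) and with DESeq2 (0.0129). In the CO2 line it had 31.1 and 36.6 CPM in hyl1 against 18.0 and 6.79 CPM in Col0, and in the 35S line 19.3 and 21.4 CPM in hyl1 against 11.3 and 13.1 CPM in Col0. Neither passed the test, and a separation of this direction was met in 21% of all genes in CO2 and 18.4% in 35S. In the SCR line, where ARPN is most abundant, it had 171 and 167 CPM in hyl1 against 199 and 22.4 CPM in Col0. The 2 Col0 SCR libraries thus spanned the hyl1 values. Without Col0 SCR replicate 1 the log2 fold change in that line was 2.92 (adjusted p = 0.00366), against 0.61 (adjusted p = 0.951) with all libraries.

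LAC7, the miR857 target, was lower in hyl1 in the lines where it is most abundant. It ranged from 48.5 to 176 CPM with a median of 128 CPM in hyl1, and from 55.7 to 502 CPM with a median of 135 CPM in Col0. Averaged over lines, LAC7 had a log2 fold change of -0.53 (SE 0.13, adjusted p = 0.00743). LAC7 in the ACR4 line had 164 and 160 CPM in hyl1 against 488 and 415 CPM in Col0, a log2 fold change of -1.48 (SE 0.32, adjusted p = 0.00418), with an adjusted p of 0.0534 without hyl1 ACR4 replicate 2. In the WER line it had 176 and 175 CPM in hyl1 against 502 and 409 CPM in Col0, a log2 fold change of -1.38 (SE 0.32, adjusted p = 0.00266). In both lines every hyl1 library lay well below every Col0 library. In the SCR line it had 49.2 and 48.5 CPM in hyl1 against 55.7 and 170 CPM in Col0, a log2 fold change of -1.21 (adjusted p = 0.0721), and of -1.80 (adjusted p = 4.11e-05) without Col0 SCR replicate 1. It also passed there without hyl1 WER replicate 1 (adjusted p = 0.0379) or 2 (0.0409). In the 35S line the order was the opposite, with 132 and 99.9 CPM in hyl1 against 66.1 and 68.9 CPM in Col0, a log2 fold change of 0.78 (adjusted p = 1.0). Without the WER line the mean log2 fold change was -0.35 (adjusted p = 0.113), and in the 35S, SHR and CO2 lines alone it was 0.30 (adjusted p = 0.214).

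Among the miR398 targets, CSD2, the plastid enzyme, had the higher mean in hyl1 in 6 of 6 lines, and its libraries did not overlap between genotypes in the 35S, ACR4, SHR, SCR and WER lines, where between 17.9% and 31.8% of all genes had both hyl1 libraries above. It ranged from 65.4 to 216 CPM with a median of 137 CPM in hyl1, and from 57.9 to 163 CPM with a median of 80.1 CPM in Col0. The mean log2 fold change was 0.61 (SE 0.11, adjusted p = 7.35e-04), and in the 35S, SHR and CO2 lines alone it was 0.63 (adjusted p = 0.0146). CSD2 had 169 and 145 CPM in hyl1 against 76.8 and 67.1 CPM in Col0 in the SHR line, a log2 fold change of 1.13 (SE 0.27, adjusted p = 0.239). It had 142 and 125 CPM in hyl1 against 81.1 and 79.2 CPM in Col0 in the ACR4 line, a log2 fold change of 0.74 (SE 0.27, adjusted p = 0.0767). In the ACR4 line it passed without Col0 SCR replicate 1 or 2 or hyl1 WER replicate 1 or 2, with adjusted p between 0.0322 and 0.0490, and in the SCR line without Col0 SCR replicate 1 (0.0388). With all libraries no single line passed the test for CSD2, and the CO2 line overlapped, with 65.4 and 90.7 CPM in hyl1 against 84.6 and 57.9 CPM in Col0.

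CSD1, the cytosolic enzyme, ranged from 187 to 910 CPM with a median of 496 CPM in hyl1, and from 91.2 to 909 CPM with a median of 413 CPM in Col0. The mean log2 fold change of CSD1 was 0.42 (SE 0.15, adjusted p = 0.0539). It passed without Col0 CO2 replicate 1 (adjusted p = 0.0193), Col0 SCR replicate 1 (0.00574) or hyl1 WER replicate 2 (0.00726), and with DESeq2 (0.018). The widest gap was in the SHR line, with 364 and 287 CPM in hyl1 against 91.2 and 109 CPM in Col0, a log2 fold change of 1.70 (SE 0.38, adjusted p = 0.143). That difference passed without Col0 SCR replicate 1 or 2 or hyl1 WER replicate 1 or 2, with adjusted p between 0.0259 and 0.0377. In the 35S line CSD1 had 859 and 843 CPM in hyl1 against 529 and 445 CPM in Col0, a log2 fold change of 0.81 (SE 0.36, adjusted p = 1.0). The ACR4, SCR, CO2 and WER libraries overlapped between genotypes, with group means of up to 844 CPM in hyl1 and up to 672 CPM in Col0. The annotation places 211 bases of CSD1 opposite AT1G08840, whose reads cannot be told apart from it without strand.

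CCS, the chaperone, ranged from 24.8 to 51.8 CPM with a median of 34.2 CPM in hyl1, and from 11.9 to 52.7 CPM with a median of 24.5 CPM in Col0. Its mean log2 fold change was 0.42 (SE 0.13, adjusted p = 0.0349), a call lost in 14 of 24 fits that left out 1 library, with adjusted p values of up to 0.0802. As for CSD1, the widest gap was in the SHR line, with 35.8 and 27.9 CPM in hyl1 against 12 and 11.9 CPM in Col0, a log2 fold change of 1.41 (SE 0.35, adjusted p = 0.258). In the 35S line it had 45.3 and 38.1 CPM in hyl1 against 36.6 and 22.7 CPM in Col0, and in the WER line 28.7 and 24.8 CPM in hyl1 against 19.8 and 21.7 CPM in Col0. Both hyl1 libraries lay above both Col0 libraries in these 3 lines. With DESeq2, CSD1 (adjusted p = 0.00334), CSD2 (0.0309) and CCS (0.0446) passed in the SHR line.

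Counted by line, 5 of the 9 genes were called in ACR4 (LAC3, LAC4, LAC17 and ARPN higher, LAC7 lower), where 14.7% of all genes were called, 6.29% higher and 8.42% lower. In WER 5 of 9 were called (LAC3, LAC4 and LAC17 higher, LAC2 and LAC7 lower), where 39.1% of all genes were called (15.8% higher and 23.3% lower) and the median over all genes was -0.24. With the 4 WER libraries fitted alone, LAC3 was the member called (adjusted p = 0.0423). The test called 0 of 9 in 35S (0.0991% of all genes), 0 of 9 in SHR (0.0818%), 0 of 9 in SCR (1.89%) and 0 of 9 in CO2 (0.146%). At an unadjusted p under 0.05 there were 3 in 35S, 5 in SHR, 3 in SCR and 3 in CO2, and DESeq2 called 0 in 35S, 3 in SHR, 1 in SCR (LAC7) and 0 in CO2. Without Col0 SCR replicate 1, the SCR line had 3 called (ARPN, CSD2 and LAC7).

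**Figure D2:**
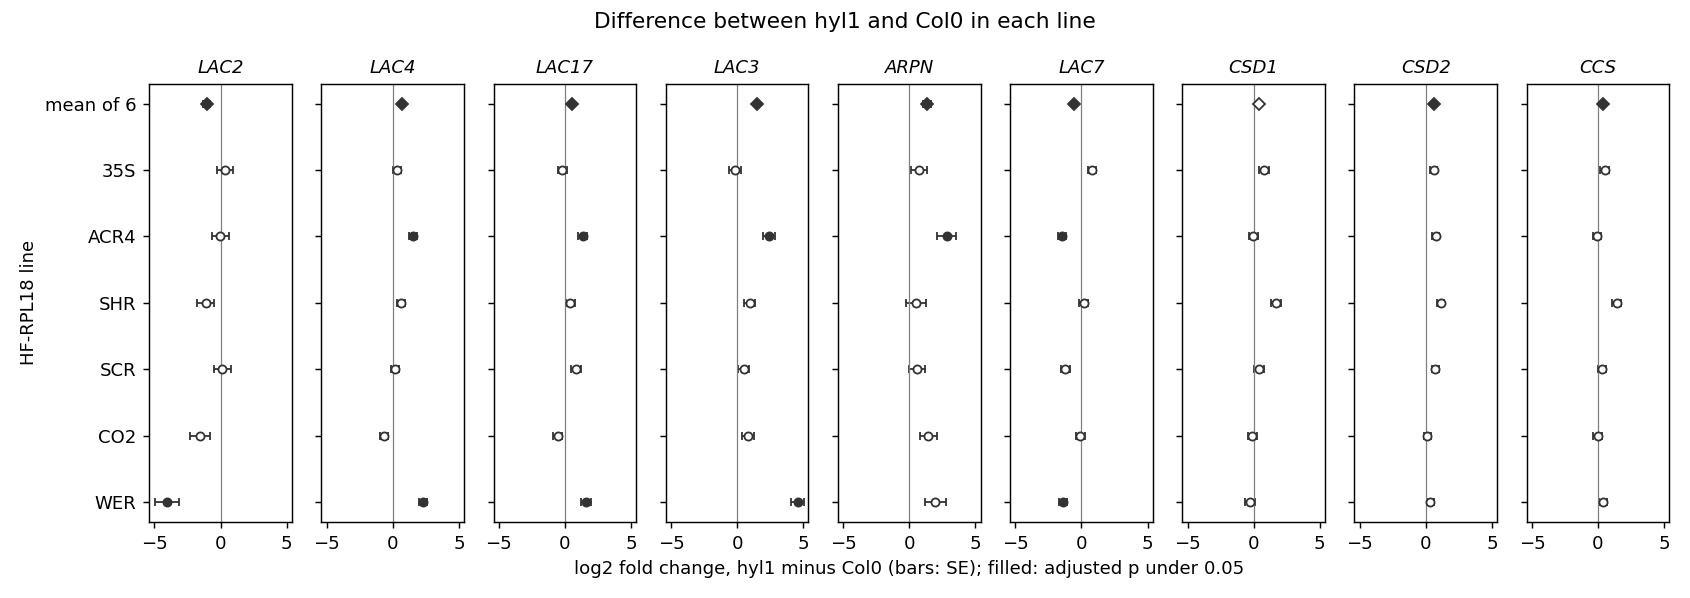
Log2 fold change, hyl1 minus Col0, of each copper protein gene as the mean over 6 lines (diamonds) and in each line (circles), with SE bars; filled symbols passed an adjusted p under 0.05. LAC3, LAC4 and LAC17 are higher and LAC7 lower in both ACR4 and WER, whereas CSD1 and CCS stand farthest to the right in SHR, at 1.70 and 1.41.

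Whether the hyl1 difference itself varied among the 6 lines was tested with 1 F test per gene. It passed for LAC3 (adjusted p = 4.35e-04), LAC4 (9.16e-04), LAC7 (0.00445) and LAC17 (0.0227), 4 of 9 where 17.8% of all genes passed. For LAC17 the call was lost in 6 of 24 fits with 1 library left out (without Col0 35S replicate 2, Col0 ACR4 replicate 2, Col0 WER replicate 1 or 2, hyl1 ACR4 replicate 1 or hyl1 CO2 replicate 2), with adjusted p up to 0.0679. It did not pass for LAC2 (adjusted p = 0.0593), CSD1 (0.0661), CCS (0.213), ARPN (0.369) or CSD2 (0.416). Without Col0 SCR replicate 2, 7 of 9 passed, LAC2, CSD1 and ARPN being added. ARPN also passed without Col0 SCR replicate 1, LAC2 without hyl1 WER replicate 1, and CSD1 without Col0 CO2 replicate 2, Col0 SCR replicate 1 or hyl1 WER replicate 1 or 2. LAC3 thus ranged from a log2 fold change of -0.17 in 35S to 4.58 in WER, LAC4 from -0.69 in CO2 to 2.32 in WER, LAC17 from -0.56 in CO2 to 1.58 in WER, and LAC7 from -1.48 in ACR4 to 0.78 in 35S.

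Markers of other root layers moved between genotypes in the same lines. In the WER line the 9 endodermis markers summed to 252 and 123 CPM in hyl1 against 42.1 and 42.6 CPM in Col0, and 6 rose and 1 fell. In the ACR4 line they summed to 166 and 194 CPM in hyl1 against 40.8 and 46.2 CPM in Col0, and 5 rose. The endodermis sum was thus higher in the hyl1 libraries of both lines in which LAC3 was called higher. In the SHR line both hyl1 libraries of LAC3 also lay above both Col0 libraries. There the endodermis sum overlapped between genotypes, at 116 and 95.8 CPM in hyl1 against 98.6 and 92.8 CPM in Col0. The same markers in the CO2 line summed to 400 and 333 CPM in hyl1 against 141 and 163 CPM in Col0, with 0 of 9 called. The 10 xylem wall genes, described further on, summed to at least 221 CPM in both hyl1 libraries against 72.0 and 87.8 CPM in Col0 in the WER line, and to 186 and 191 CPM in hyl1 against 88.3 and 76.0 CPM in Col0 in the ACR4 line. The 5 columella and root cap markers summed to 90.9 and 97.3 CPM in hyl1 against 334 and 446 CPM in Col0 in the WER line, where 3 fell. Their sum went the other way in the ACR4 line, with 1206 and 1095 CPM in hyl1 against 536 and 566 CPM in Col0. Of these markers, 4 fell there, and the 1 that rose was ACR4 itself (log2 fold change 2.71). The 9 epidermis markers summed to 286 and 266 CPM in hyl1 against 632 and 653 CPM in Col0 in the WER line, and to 170 and 182 CPM in hyl1 against 400 and 398 CPM in Col0 in the ACR4 line. Of these 9, 3 fell and 1 rose in WER, and 3 fell and 6 did not pass in ACR4. The epidermis sum was lower in both hyl1 libraries in 6 of 6 lines, also in the 35S line (139 and 120 CPM in hyl1 against 163 and 168 CPM in Col0) and the SHR line (162 and 144 CPM in hyl1 against 187 and 239 CPM in Col0). LAC7 had log2 fold changes of 0.78 in 35S and 0.16 in SHR, positive where the sum was lower.

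The 6 stele markers summed to 140 and 200.4 CPM in hyl1 against 100.1 and 89.6 CPM in Col0 in the WER line, where 4 rose and the median log2 fold change was 2.79. They summed in the ACR4 line to 159 and 143 CPM in hyl1 against 102 and 105 CPM in Col0, and 3 rose, with a median of 1.84. Sums of the stele markers and of the xylem wall genes were thus higher in hyl1 in both lines in which LAC4 and LAC17 were called higher. In the SCR and SHR lines both hyl1 libraries of LAC4 and LAC17 also lay above both Col0 libraries, without passing the test. Both sums were higher in hyl1 in SCR. In SHR the xylem wall sum was higher in hyl1, at 996 and 1018.8 CPM against 906 and 829 CPM in Col0. The stele sum was lower there, at 222 and 220 CPM in hyl1 against 275 and 235.7 CPM in Col0. None of the endodermis, epidermis, stele or root cap markers was at 0 in both libraries of a group. A set of 10 transcripts was taken from these data by the largest mean CPM excess of the layer lines over the 35S line. It held 33.4% and 37.0% of counts in hyl1 against 8.27% and 9.14% in Col0 in the ACR4 line. In the WER line it held 30.5% and 24.7% in hyl1 against 4.03% and 3.57% in Col0. The shares were 31.7% and 31.0% in hyl1 against 30.4% and 31.5% in Col0 in CO2, and 21.0% and 20.3% against 19.9% and 22.3% in SHR. In SCR they were 8.52% and 8.26% in hyl1 against 15.4% and 26.7% in Col0. The part of these shifts in the differences of the copper protein genes was not tested.

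The second comparison asked in which root layer each transcript is ribosome-associated in the wild type, setting each Col0 layer line against the mean of the other 4. The stele line SHR had 6 of 9 called, where 19.1% of all genes were called, 9.6% higher and 9.52% lower. LAC4, LAC17 and LAC2 were higher there and CSD1, LAC7 and CCS lower. LAC4 stood at 76.2 and 92.3 CPM in SHR, against between 4.76 and 24.2 CPM in the other Col0 layer libraries, a log2 fold change of 2.91 (SE 0.20, adjusted p = 3.71e-08). LAC17 stood at 86.6 and 72.9 CPM in SHR, against between 6.83 and 20.0 CPM, a log2 fold change of 3.16 (SE 0.24, adjusted p = 9.17e-08). LAC2 stood at 7.99 and 8.56 CPM in SHR, against between 0.888 and 3.25 CPM, a log2 fold change of 2.23 (SE 0.45, adjusted p = 0.00170). The 3 miR397 targets thus shared the stele line as their highest Col0 group, with no overlap with another layer line.

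CSD1 stood at 91.2 and 109 CPM in the Col0 SHR line, against between 273 and 909 CPM in the other Col0 layer libraries, a log2 fold change of -2.28 (SE 0.34, adjusted p = 1.31e-04). CCS stood at 12 and 11.9 CPM in SHR, against between 19.8 and 52.7 CPM, a log2 fold change of -1.36 (SE 0.30, adjusted p = 0.00334), and its adjusted p was 0.0541 without Col0 SHR replicate 2. LAC7 stood at 70.7 and 82.4 CPM in SHR, a log2 fold change of -1.63 (SE 0.29, adjusted p = 5.53e-04). CSD2 was not called in any Col0 layer line, and its log2 fold changes lay between -0.13 in CO2 and 0.21 in SCR.

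In the endodermis line SCR, 4 of 9 were called, where 6.5% of all genes were called, 5.17% higher and 1.34% lower. ARPN stood at 199 and 22.4 CPM in SCR, against between 0.542 and 18.0 CPM in the other Col0 layer libraries, a log2 fold change of 4.79 (SE 0.44, adjusted p = 5.63e-07). LAC3 had 4783 and 1531 reads in the SCR libraries, a mean of 472 ± 333 CPM (SD, n = 2). The other Col0 layer libraries had between 11.8 and 132 CPM of LAC3, and the log2 fold change was 3.46 (SE 0.29, adjusted p = 1.61e-07). Both Col0 SCR libraries lay above every other Col0 layer library for both miR408 targets, but far apart from each other. Without Col0 SCR replicate 1 the log2 fold change was 2.49 for ARPN and 2.46 for LAC3, and without Col0 SCR replicate 2 it was 5.64 for ARPN and 4.04 for LAC3. CSD1 was higher in SCR by 1.08 (adjusted p = 0.0175), a value of 0.32 (adjusted p = 0.968) without Col0 SCR replicate 1. LAC7 had a log2 fold change of -0.92 (adjusted p = 0.0459), which did not pass in 20 of 24 fits with 1 library left out and was -0.33 without Col0 SCR replicate 1 and -1.94 without Col0 SCR replicate 2.

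In the columella line ACR4, 5 of 9 were called, where 12.3% of all genes were called, 8.58% higher and 3.76% lower. LAC7 was higher, at 488 and 415 CPM, with a log2 fold change of 1.57 (SE 0.23, adjusted p = 1.78e-04), and so was CSD1, with 1.15 (SE 0.27, adjusted p = 0.00728). LAC3 was lower by a log2 fold change of -2.18, LAC4 by -1.82 and LAC17 by -1.03. Of these calls, CSD1 was lost without Col0 ACR4 replicate 1 (adjusted p = 0.187) and LAC3 without Col0 ACR4 replicate 2 (0.0555). LAC17 was lost without Col0 ACR4 replicate 1 (0.204) or 2 (0.294), Col0 CO2 replicate 2 (0.0552) or Col0 SHR replicate 1 (0.0558).

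In the epidermis line WER, 5 of 9 were called, where 26.7% of all genes were called, 14.9% higher and 11.8% lower. LAC7 was higher, at 502 and 409 CPM, with a log2 fold change of 1.59 (SE 0.23, adjusted p = 4.25e-05). ARPN was lower by a log2 fold change of -3.80, LAC3 by -2.77, LAC17 by -1.21 and LAC4 by -0.97. LAC17 was lost without Col0 WER replicate 1 (adjusted p = 0.0553) or 2 (0.0624), and LAC4 without Col0 WER replicate 2 (0.117). The test called 0 of 9 in the cortex line CO2, where 10.1% of all genes were called. At an unadjusted p under 0.05 there were 2 and with DESeq2 there were 0, while 3 passed without Col0 SCR replicate 1 (LAC3, ARPN and LAC7) and 1, LAC3, without hyl1 WER replicate 1 or 2.

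Leaving out 1 library also added calls in the other layer lines. Without Col0 SCR replicate 1 they were CCS in ACR4 and LAC3 in SHR, and without Col0 SCR replicate 2 ARPN in ACR4 and CCS in SCR. Without Col0 CO2 replicate 1 they were CCS in ACR4, and LAC17 and CCS in SCR. Without hyl1 WER replicate 1 or 2 they were CCS in ACR4, LAC17 and CCS in SCR, and LAC2 in WER.

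**Figure D3:**
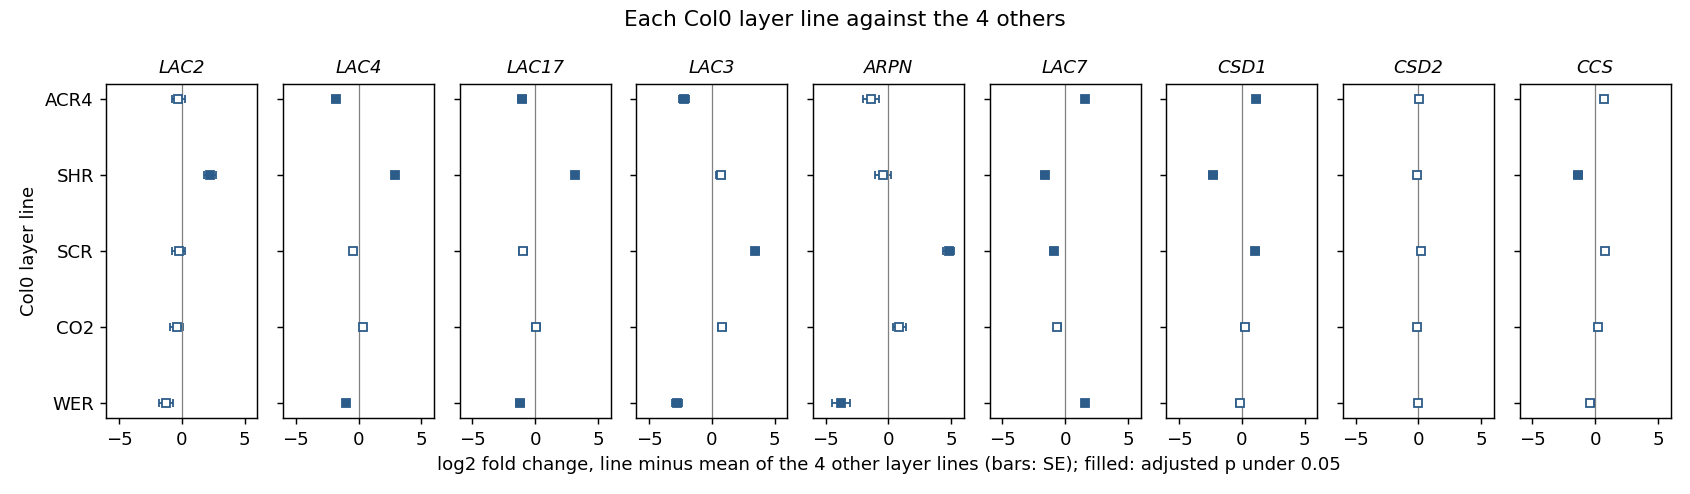
Log2 fold change of each copper protein gene in each Col0 layer line against the mean of the 4 other Col0 layer lines, with SE bars; filled squares passed an adjusted p under 0.05. LAC2, LAC4 and LAC17 stand out to the right in SHR, at 2.23, 2.91 and 3.16, and LAC3 and ARPN in SCR, at 3.46 and 4.79, while CSD2 stays within -0.13 and 0.21.

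The order of the lines differed between genotypes for some genes. By mean CPM LAC3 ran SCR, WER, SHR, CO2, ACR4, 35S in hyl1, where SHR and CO2 did not differ beyond the spread of their libraries. In Col0 it ran SCR, CO2, SHR, 35S, ACR4, WER, where CO2 and SHR, and ACR4 and WER, did not differ beyond their spread. LAC4 was highest in SHR in both genotypes, and WER held the second place in hyl1 and the fifth in Col0. LAC17 was also highest in SHR in both genotypes, with 115 and 96.1 CPM in hyl1 and 86.6 and 72.9 CPM in Col0. ARPN was highest in SCR and lowest in WER in both genotypes. LAC7 was highest in WER and ACR4 in both genotypes, and these did not differ beyond their spread in Col0. CSD1 was lowest in SHR in Col0, while in hyl1 the CO2, SHR and WER lines overlapped at the low end. For CSD2 the 35S line had the highest mean in both genotypes, and in Col0 the neighbours among the other 5 lines all overlapped.

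Over the 12 group means, the members formed 2 close pairs. LAC4 and LAC17 correlated with r = 0.946, and CSD1 and CCS with r = 0.950, on log2(CPM + 1). LAC3 and ARPN had r = 0.697, and LAC7 and ARPN had r = -0.643. CSD2 and CSD1 had r = 0.517. All these values describe points that share library depth and layer composition.

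Likeness was sought among 16734 genes whose mean log2 CPM was 2 or more. LAC4 was most like CESA4 (r = 0.981), which makes secondary wall cellulose, AT3G59695 (r = 0.974) and IQD13 (r = 0.974). Those most like LAC17 were XCP2 (r = 0.983) and XCP1 (r = 0.981), proteases of xylem vessels, and the overlapping AT5G60022 (r = 0.979). LAC3 was most like MEE62 (r = 0.979), AT1G03920 (r = 0.969) and AT3G62590 (r = 0.960). ARPN was most like AT3G58550 (r = 0.981), AT1G71740 (r = 0.979) and AT2G18370 (r = 0.977). LAC7 was most like AT1G51790 (r = 0.985), PME2 (r = 0.977) and KOR2 (r = 0.976). CSD1 was most like its overlapping neighbour AT1G08840 (r = 0.975), then CCS, then AT2G46620 (r = 0.910). CCS was most like CSD1, then AT1G08840 (r = 0.943), then AT2G46620 (r = 0.891). LAC2 was most like AT5G10350 (r = 0.945), RIC4 (r = 0.942) and AT5G23200 (r = 0.941). CSD2 had no close match, with AT2G01060 (r = 0.881), AT2G24360 (r = 0.879) and RPL12-A (r = 0.878) nearest.

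Beside the marker lists, LAC17 correlated with the summed xylem wall genes with r = 0.992 and LAC4 with r = 0.959 over the 12 group means. ARPN correlated with the summed endodermis markers with r = 0.935 and LAC3 with r = 0.833. LAC7 correlated with the summed epidermis markers with r = 0.862. CSD2 had r = 0.631 with the stele markers, and CSD1 r = 0.461 with the columella and root cap markers, as their highest values among the 6 sums.

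**Figure D4:**
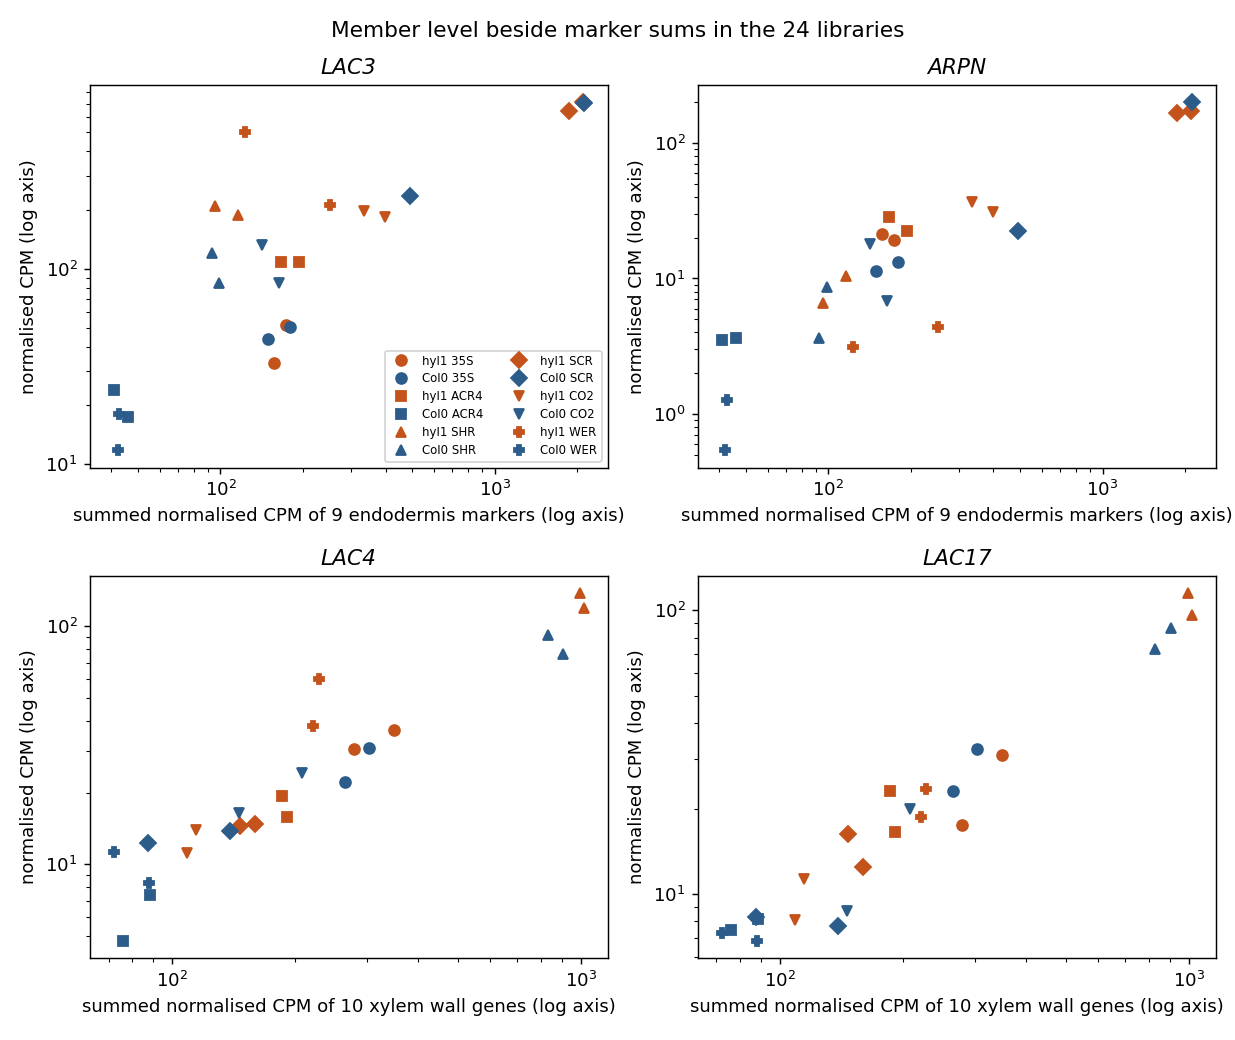
Normalised CPM of LAC3 and ARPN against the summed CPM of 9 endodermis markers, and of LAC4 and LAC17 against the summed CPM of 10 xylem wall genes, in the 24 libraries on log axes; colours give genotype and symbols the line. LAC17 lies along the xylem wall sum (r = 0.992 over group means), while LAC3 in the 2 hyl1 WER libraries, at 211 and 504 CPM, sits beside endodermis sums of 252 and 123 CPM.

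Lignified xylem wall genes, the setting of LAC4 and LAC17, were described by a list of 10. Averaged over the lines, 6 rose in hyl1, 1 fell and 3 did not pass, with a median log2 fold change of 0.46. Without the WER line 2 of these 7 calls were left, XCP2 (adjusted p = 0.0362) and IRX6 (0.0435), and in the 35S, SHR and CO2 lines alone 0 of 10 passed. The call of IRX6 over all lines was lost without the low-count filter (adjusted p = 0.0579) and with a replicate block (0.0887). With all lines XCP2 rose by 0.66 (SE 0.11, adjusted p = 2.60e-04), XCP1 by 0.50 (adjusted p = 0.00320) and CESA8, a secondary wall cellulose synthase, by 0.50 (adjusted p = 0.0146). MYB46, a regulator of secondary walls, had a log2 fold change of -1.24 (adjusted p = 0.0159), with an adjusted p of up to 0.0552 when 1 library was left out. By line, the list's median was 1.41 in WER and 1.14 in ACR4, beside 2.32 and 1.52 for LAC4 and 1.58 and 1.34 for LAC17. It was -0.75 in CO2, beside -0.69 for LAC4 and -0.56 for LAC17. All 10 were higher in the Col0 SHR line than in the other Col0 layer lines.

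Of the 12 laccases outside the 9 genes, 11 were tested, 3 rose and 3 fell, with a median of 0.08. LAC5 rose by 1.26 (SE 0.18, adjusted p = 1.10e-04), with 7.40 to 166 CPM in hyl1 and 2.38 to 121 CPM in Col0. LAC13 rose by 1.22 (SE 0.19, adjusted p = 2.69e-04), with 10.1 to 193 CPM in hyl1 and 1.30 to 154 CPM in Col0. LAC13 is a known miR408 target with the site
LAC13: gccggugaagaggCUGUGCAg
which, with LAC3, shares the stretch that faces the seed. LAC12, another known miR408 target, carries the same stretch facing the seed but did not rise. Its log2 fold change was -1.03 (SE 0.46, adjusted p = 0.134), with 0 to 3.70 CPM in hyl1 and 0.825 to 9.33 CPM in Col0. LAC14 (-1.24, adjusted p = 0.0152) and LAC9 (-0.71, adjusted p = 0.00490) fell. Outside the rule for naming genes, and chosen after their values were seen, the other 2 called were LAC1 (0.56, adjusted p = 0.0150) and LAC8 (-0.64, adjusted p = 0.00746), and LAC12 was named for its microRNA. Without the WER line the calls of LAC1 (adjusted p = 0.508) and LAC14 (0.363) were lost, and that of LAC14 also with a replicate block (0.0533). In the 35S, SHR and CO2 lines alone, LAC5 (log2 fold change 0.37, edgeR adjusted p = 0.338) and LAC13 (0.57, 0.0947) did not pass. Neither did LAC9 (-0.71, 0.114), LAC8 (-0.25, 0.616) or LAC1 (-0.31, 0.403).

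Superoxide dismutases outside the 9 genes comprise the copper enzyme CSD3, the iron enzymes FSD1, FSD2 and FSD3 and the manganese enzyme MSD1. The test called 0 of 5 in the mean, with a median of -0.17, while 1 had an unadjusted p under 0.05 and DESeq2 called 0. FSD1 had a median of 125 CPM in hyl1 and 205 CPM in Col0, with a log2 fold change of -0.49 (SE 0.32, adjusted p = 0.310). MSD1 had a median of 200 CPM in hyl1 and 189 CPM in Col0, with a log2 fold change of -0.17 (SE 0.15, adjusted p = 0.488).

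Of 21 genes of copper sensing, uptake and delivery, 19 were tested, 2 rose, 3 fell and 14 did not pass, with a median of -0.14. Among those 14, and named here for their microRNA sites, were UCC2 (miR408-3p, penalty 3.5) and COX5b-1 (miR398a-3p, penalty 4.5). With DESeq2 the log2 fold change was 0.07 for UCC2 (adjusted p = 0.819) and -0.09 for COX5b-1 (adjusted p = 0.391). In the 35S, SHR and CO2 lines alone that of UCC2 was 0.50 (edgeR adjusted p = 0.0212). SPL7, the copper-sensing factor, had a median of 42.7 CPM in hyl1 and 42.6 CPM in Col0, with a log2 fold change of -0.04 (SE 0.09, adjusted p = 0.833). FRO4, a copper-reducing enzyme of the root surface, fell by 1.64 (SE 0.44, adjusted p = 0.0136), with a median of 3.05 CPM in hyl1 and 8.97 CPM in Col0. COPT2, a copper importer, fell by 1.43 (SE 0.37, adjusted p = 0.00999), with a median of 5.79 CPM in hyl1 and 14.4 CPM in Col0. ZIP2, a metal transporter, fell by 0.91 (adjusted p = 0.0206). These 3 calls were each lost in 2 of 24 fits with 1 library left out. PAA2, the copper pump of the thylakoid, rose by 0.85 (SE 0.24, adjusted p = 0.0177), with a highest adjusted p of 0.0512 when 1 library was left out. HMA5, a copper exporter outside the naming rule and named after its value was seen, had a log2 fold change of 0.53 (adjusted p = 0.0370), lost in 15 of 24 such fits. With a replicate block COPT2 (adjusted p = 0.0674), ZIP2 (0.0823) and HMA5 (0.0739) lost their calls. Without the WER line ZIP2 (0.110), PAA2 (0.180) and HMA5 (0.170) lost theirs. In the 35S, SHR and CO2 lines alone, FRO4 (edgeR adjusted p = 0.0660), COPT2 (0.273), ZIP2 (0.746), PAA2 (0.275) and HMA5 (0.474) did not pass.

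The loci of the copper microRNAs were themselves in the count table, where reads of the primary transcript can be counted and the mature microRNA cannot. MIR398b held between 12 and 105 reads per library in hyl1 and between 2 and 37 reads per library in Col0, 477 and 114 reads in all. It rose with a mean log2 fold change of 2.41 (adjusted p = 1.37e-05). MIR398c had 530 reads in hyl1 and 404 reads in Col0 (log2 fold change 0.72, adjusted p = 0.0586), and MIR408 had 502 reads in hyl1 and 345 reads in Col0 (0.61, adjusted p = 0.172). MIR857 had 76 reads in hyl1 and 69 reads in Col0 (-1.08, adjusted p = 0.169). MIR397a, MIR397b and MIR398a had between 0 and 3 reads per genotype in all and were not tested. The annotation overlaps MIR398b by 116 bases with AT5G14550 and MIR408 by 218 bases with AT2G47020, both on the opposite strand, so these reads cannot be told apart without strand.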

How the data were processed

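The authors deposited raw counts of reads per gene in 1 table of 24 libraries. Per the submitters' processing notes, CASAVA 1.8.2, TopHat2 2.0.11, Bowtie2 2.2.1.0, featureCounts of Subread and the TAIR10 genome were used. How strand and multiply matching reads were handled is not given in the sources used here.

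Counts were tested as deposited with the quasi-likelihood F test of edgeR 4.0.16 (R 4.3.3) on 12 groups of line and genotype, with TMM scaling and filterByExpr (minimum count 10, minimum total 15). The common dispersion was 0.126. P-values were adjusted by Benjamini-Hochberg over all 23219 tested genes, and a gene was called at an adjusted p under 0.05. SE is the log2 fold change over the root of F. CPM are counts per 1000000 of the TMM-scaled library; per kilobase values use the exon length of TAIR10.1. The procedure was tested on simulated data that held no differences between lines and no outlying libraries, so it was not checked for those. Gene names were found for 97.7% of identifiers.

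Replicate numbers did not pair libraries: the deviations of same-numbered libraries correlated with r between -0.135 and 0.077. The 9 genes and all lists were chosen with earlier results of these data known. Named genes were all 9, the up to 4 called list genes with the largest mean difference (the 2 most abundant where none was called), SPL7, the 3 genes most like each member, and HYL1. Alternatives were RLE size factors, DESeq2 1.42.0, no filter, a replicate block, each library left out, fewer lines, and each line fitted alone.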

Additional observations from a re-analysis of the deposited data

Results flagged for a closer look

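The hyl1 difference varied among the 6 lines, by an F test of the difference itself, for LAC3 (adjusted p = 4.35e-04), LAC4 (adjusted p = 9.16e-04), LAC7 (adjusted p = 0.00445) and LAC17 (adjusted p = 0.0227). For LAC3 the log2 fold change was -0.17 in 35S, 2.38 in ACR4, 0.96 in SHR, 0.52 in SCR, 0.82 in CO2 and 4.58 in WER. For LAC4 it was 0.33 in 35S, 1.52 in ACR4, 0.61 in SHR, 0.16 in SCR, -0.69 in CO2 and 2.32 in WER. For LAC7 it was 0.78 in 35S, -1.48 in ACR4, 0.16 in SHR, -1.21 in SCR, -0.07 in CO2 and -1.38 in WER. For LAC17 it was -0.20 in 35S, 1.34 in ACR4, 0.40 in SHR, 0.84 in SCR, -0.56 in CO2 and 1.58 in WER. In the 35S, SHR and CO2 lines alone, 0 of the 9 genes passed this test, where 9 of all 21563 genes tested passed it.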

How the results depend on the processing

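Of all genes, 4607 were called for the mean hyl1 effect, 2738 without the WER line, 775 in the 35S, SHR and CO2 lines alone, and between 3687 and 9487 with 1 library left out, the most without hyl1 WER replicate 1. Of the 9 copper protein genes, 8 were called for the mean, 7 to 9 with 1 library left out, and 5 in those 3 lines, where LAC17 turned to -0.11 and LAC7 to 0.30. The difference between lines called 4, then 0 in the 3 lines and 3 to 7 with 1 library left out. In those 3 lines the test of the difference between lines called 9 of all 21563 genes tested. Fits of the 4 libraries of a line called 2 in 35S, 1 in SHR and 1 in WER. DESeq2 called 3 in SHR and 1 in SCR, and the fit without the WER line 1 in SHR and 1 in SCR. With 1 library left out, members called for hyl1 ranged from 2 to 6 in ACR4, 0 to 1 in SHR, 0 to 3 in SCR and 5 to 6 in WER. In the Col0 layer comparisons they ranged from 3 to 6 in ACR4, 2 to 6 in SCR, 0 to 3 in CO2 and 3 to 6 in WER. The number of all genes called also moved with the library left out, in the ACR4, SCR and CO2 layer comparisons and for the difference between lines. Such ranges are thus not a result about the 9 genes alone. A group left with 1 library was assumed to vary like the others. The cause of these shifts was not tested.

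The replicate numbers share only a number, and a replicate block gave 3558 genes and 7 members called for the mean effect, with LAC2 at -1.01 (adjusted p = 0.0673). RLE size factors, DESeq2 and the unfiltered fit each called all 9 members for the mean effect, CSD1 included. Low counts limit LAC2, with at most 45 reads per library, and ARPN in Col0 WER, with 5 and 15.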
